A study of Xenopus laevis with 111 samples.

Results

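The libraries described here are the 12 mRNA-seq libraries of series S5 that were made from *X. laevis* spinal cords between 13 and 18 h after surgery, out of 111 libraries in all. They were chosen by series, hour and surgery: 3 libraries from transected cords at 16, 17 and 18 h, 3 from sham cords at the same hours, 3 from transected cords at 13, 14 and 15 h and 3 from sham cords at those hours. All 12 came from NF stage 50 tadpoles, and no allele or agent distinguished the groups. All animals had surgery under the anaesthetic MS222 and were then kept with penicillin and streptomycin. The question was whether the injury effect, the log2 difference of a transected cord from the sham cord of the same hour, differed at 16 to 18 h from that at 13 to 15 h.

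The study followed the first 21 h after complete transection of the cord at mid-thoracic level, with sham-operated and uninjured controls, and added an experiment with Torin1, an inhibitor of the kinase mTOR. Sham animals had the dorsal skin and muscle opened and kept an intact cord, so the sham cord carries the response to anaesthesia and to damage around the cord. Each S5 library was made from a pool of 12 spinal cords, taken caudal to the level of surgery. All S5 animals came from the same batch, so the hours served as replicates, and the p-values below measure the spread between pools taken at neighbouring hours and not between batches of animals.

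Tadpoles of this stage regenerate the spinal cord after transection, an ability that is lost during metamorphosis. Below the cut, descending axons are severed from their cell bodies and degenerate, cells of the immune system gather, and the progenitor cells that line the central canal enter the cell cycle over the following days. The cord is a mixed tissue, and in such a sample fewer cells of a type cannot be told apart from less RNA per cell. The gene models of the deposited tables carry identifiers only, none of which matched a symbol in the reference table used here. Markers of cell types could therefore not be read, the tissue label was not checked, and 7 gene models are called A to G by the order of their p-values.

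The 6 pairs were similar in depth apart from 1 library. Totals were between 14.7 and 27.7 M expected counts in 11 libraries, and the transected library of 18 h had 76.6 M. Libraries of the same surgery 1 h apart correlated at 0.9878 to 0.9965 (Spearman, 10 pairs of libraries), and the transected and sham libraries of the same hour at 0.9799 to 0.9853 (6 pairs). Earlier libraries of S5 were left out because libraries of that series correlated less well across 12 h than later. Libraries 2 h apart correlated at 0.9709 (transected) and 0.9728 (sham) between 11 and 13 h. From 13 h on such libraries correlated at 0.9862 to 0.9933 (8 pairs of libraries). Whether the lower correlation across 12 h has a technical cause was not tested. Counts were tested in 32328 gene models with edgeR's quasi-likelihood test with the pair of the same hour as a block, and a gene model was called at a Benjamini-Hochberg adjusted p under 0.05. Levels are CPM, counts per M counts, after TMM scaling over the 12 libraries, unless stated otherwise.

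The injury effect changed between the windows in 7 of 32328 gene models, and in all 7 it was lower at 16 to 18 h than at 13 to 15 h. These 7 are 0.0217% of the gene models tested, and other filters and models called between 0 and 232. In 6 of them the change was at least 2-fold. At an unadjusted p under 0.05 there were 2325 gene models, 7.19% of those tested, with 1028 higher and 1297 lower. The 3 pair differences of 16 to 18 h all lay below those of 13 to 15 h in 1914 gene models (5.92%) and all above in 2318 (7.17%), and the 7 called belong to the first set. The common biological coefficient of variation was 0.109. Each gene model had 4 residual degrees of freedom, to which the tests and intervals add a median prior of 10.41 borrowed across gene models.

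Gene model A had the smallest p and moved across the sham level. Its levels were 27.9, 31.4 and 40.1 CPM in transected cords at 16, 17 and 18 h, against 43.2, 39.99 and 54.7 CPM in sham cords. At 13, 14 and 15 h its levels were 76.5, 141.2 and 50.5 CPM in transected cords, against 24.9, 39.3 and 17.9 CPM in sham cords. The transected library was the lower of the pair at each later hour and the higher at each earlier hour. The injury effect was -0.47 at 16 to 18 h, against 1.66 at 13 to 15 h on the log2 scale, a change of -2.13 ± 0.14 (SE, adjusted p = 7.8e-06).

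Gene model C, Xelaev18016263m.g, had the largest change of the 7 and was far higher in transected than in sham cords. Its levels were 10.5, 10.5 and 12.0 CPM in transected cords at 16, 17 and 18 h, against 1.44, 1.54 and 1.25 CPM in sham cords. Earlier, at 13, 14 and 15 h, it had 23.4, 25.3 and 12.5 CPM in transected cords, against 0.436, 0.319 and 0.367 CPM in sham cords. It stayed far above sham at every hour, but the gap narrowed on both sides, and neither condition overlapped between the windows. The sham levels rest on 23 to 30 counts per library at 16 to 18 h and 6 to 10 counts at 13 to 15 h. The injury effect was 2.96 at 16 to 18 h, against 5.67 at 13 to 15 h (log2), a change of -2.71 ± 0.31 (SE, adjusted p = 0.0044).

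Gene models B and D were lower in transected cords at all 6 hours, and more so later. Gene model B had 22.3, 21.98 and 26.5 CPM in transected cords at 16, 17 and 18 h, against 87.4, 97.6 and 101.8 CPM in sham cords. In the earlier window it had, at 13, 14 and 15 h, 34.8, 32.7 and 30.8 CPM in transected cords, against 42.4, 47.4 and 51.7 CPM in sham cords. No value overlapped between the windows in either condition, and the change was -1.50 ± 0.14 (log2, SE, adjusted p = 0.00063). Gene model D, Xelaev18043836m.g, had 13.1, 6.16 and 8.52 CPM in transected cords at 16, 17 and 18 h, against 74.8, 101.4 and 45.8 CPM in sham cords. At 13, 14 and 15 h it had 17.5, 16.3 and 14.5 CPM in transected cords, against 23.3, 28.7 and 22.6 CPM in sham cords. Its change was -2.34 ± 0.31 (log2, SE, adjusted p = 0.017), and the 17 h pair had the widest gap, with a difference of -4.03 (log2).

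Gene models E, F and G lay closer to the threshold. Gene model E had 73.9, 60.3 and 65.4 CPM in transected cords at 16, 17 and 18 h, against 311.4, 278.0 and 258.9 CPM in sham cords. The levels of E at 13, 14 and 15 h were 97.8, 96.6 and 59.2 CPM in transected cords, against 194.6, 219.9 and 141.5 CPM in sham cords. Its injury effect was -2.09 at 16 to 18 h, against -1.15 at 13 to 15 h, the smallest change of the 7 at -0.94 ± 0.14 (log2, SE, adjusted p = 0.041). The transected levels of E overlapped between the windows and the sham levels did not.

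Gene model F was the most abundant of the 7 per length, with a mean of 775.5 TPM (transcripts per M transcripts, which accounts for length) over the 12 libraries, against 6.08 to 148.4 TPM for the other 6. It had 668.6, 472.8 and 621.8 CPM in transected cords at 16, 17 and 18 h, against 1297, 1306 and 1192 CPM in sham cords. The levels of F at 13, 14 and 15 h were 852.3, 876.7 and 687.2 CPM in transected cords, against 583.9, 802.6 and 660.8 CPM in sham cords. The injury effect of F was -1.12 at 16 to 18 h (adjusted p = 7.8e-05), while at 13 to 15 h it was 0.24 and did not pass (adjusted p = 0.30), and the change was -1.36 ± 0.20 (log2, SE, adjusted p = 0.041). Gene model G had 10.4, 8.73 and 11.7 CPM in transected cords at 16, 17 and 18 h, against 51.4, 74.0 and 103.8 CPM in sham cords. The levels of G at 13, 14 and 15 h were 10.2, 15.4 and 12.9 CPM in transected cords, against 32.3, 50.9 and 32.4 CPM in sham cords. The transected levels of G overlapped between the windows, its sham levels did not, and the change was -1.32 ± 0.20 (log2, SE, adjusted p = 0.042).

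**Figure D1:**
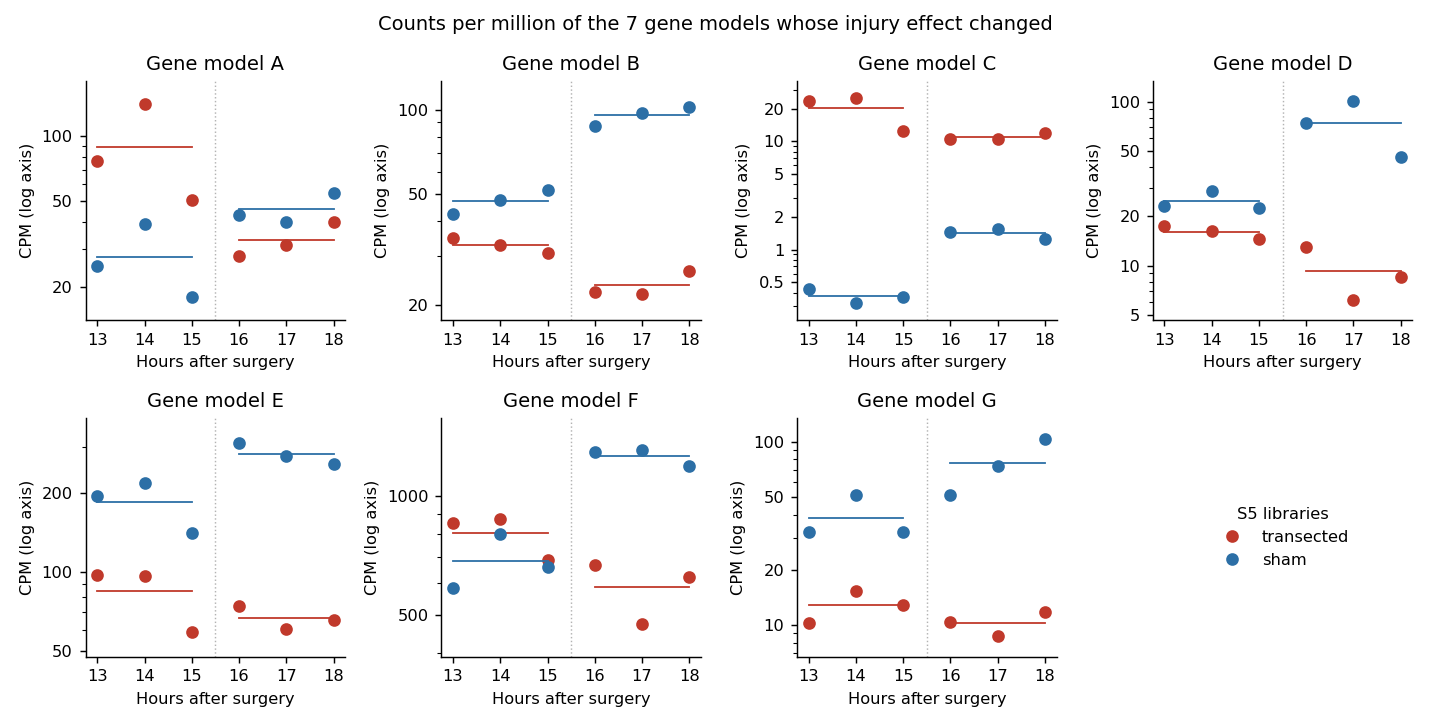
Levels of gene models A to G in the 12 S5 libraries, in CPM on a log axis, against hours after surgery. Each point is 1 library (red, transected; blue, sham), lines are the means of 3 libraries, and the dotted line divides the windows. The transected mean is lower and the sham mean higher after that line in all 7, which were called from these same libraries.

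A and B passed the test whichever pair was left out, while the number of gene models called was 2 to 13, with 13 without the 15 h pair. Without the 13 h pair only A and B passed of the 7, and without the 18 h pair, which holds the deepest library, A, B, C and D did. Over the 15 alternatives that gave each an adjusted p, A passed in 12 and B in 14, with adjusted p of up to 0.76 for A and 0.11 for B. Thinning that library to 20.4 M counts kept all 7. Without the block, 3 of the 7 passed, B, D and F.

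The change with time was also read in each condition alone. Changes are log2, 16 to 18 h minus 13 to 15 h. Those of the 7 were -0.31 (G) to -1.41 (A) in fitted transected levels and 0.61 (E) to 1.90 (C) in fitted sham levels. The 7 were called for the transected change minus the sham change in the same libraries. Their opposite signs, and calls among them in either condition, are therefore not independent of that choice. Over all gene models, edgeR called 0 for a change with time in transected cords (0.0%) and 3 in sham cords (0.00928% of those tested), all higher at 16 to 18 h. B (1.02 ± 0.10, adjusted p = 0.00038) and D (1.58 ± 0.23, adjusted p = 0.042) were among those 3. In transected cords no change of the 7 passed, with adjusted p between 0.40 (A) and 0.76 (G). At an unadjusted p under 0.05, there were 2552 gene models in transected cords (7.89%) and 4753 in sham cords (14.7%). Without the 15 h libraries, 10 gene models were called in transected cords and 538 in sham cords, 267 higher and 271 lower, so these counts depend on that hour.

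In uninjured cords of series S8 at the same hours, none of the 7 passed the test for a change with time. Their fitted changes were between -0.27 (D) and 0.56 (A), and 0 of 32328 gene models were called by edgeR's quasi-likelihood test (0.0%), with 507 at an unadjusted p under 0.05, and 2 were called without the 14 h library. S8 is a separate batch without surgery, so its levels were not set against those of S5.

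**Figure D2:**
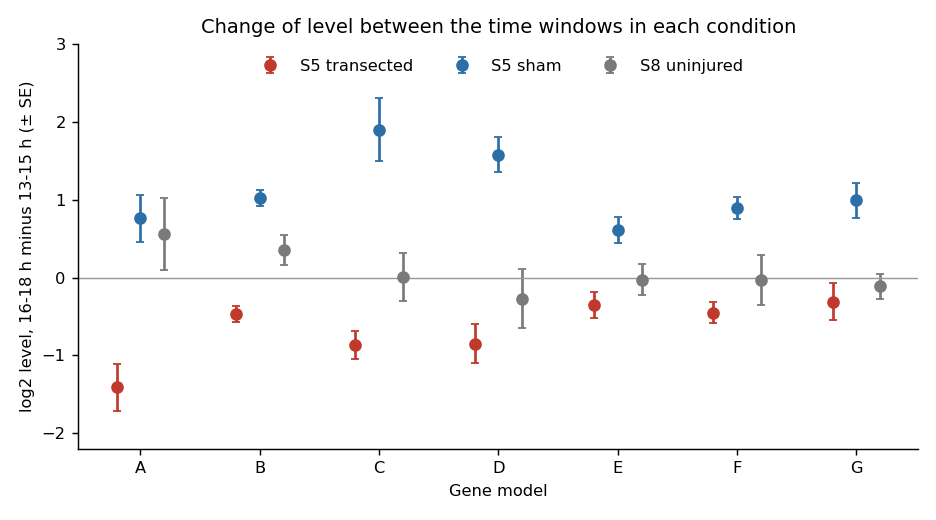
Fitted change of level of gene models A to G between the time windows (log2, 16 to 18 h minus 13 to 15 h) in S5 transected, S5 sham and S8 uninjured cords, with standard errors. Transected cords lie between -1.41 and -0.31, sham cords between 0.61 and 1.90, and uninjured cords between -0.27 and 0.56.

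The injury effect itself was broad in both windows. At 16 to 18 h, 6492 gene models were called, 3631 higher and 2861 lower (20.1% of those tested), with a median absolute effect of 0.56 (log2). At 13 to 15 h, 4216 were called, 2470 higher and 1746 lower (13.0%), with a median absolute effect of 0.54. Effects of at least 2-fold were found in 640 higher and 441 lower gene models at 16 to 18 h, and in 529 higher and 148 lower at 13 to 15 h. On log2(TPM + 1), which was not rescaled between libraries, limma called 4792 higher and 946 lower at 16 to 18 h, and the median effect over all gene models was 0.094 there, against -0.024 with TMM scaling. The counts fell when any pair of the window was left out. At 16 to 18 h, 3151 were called without the 18 h pair, 3907 without the 16 h pair and 4163 without the 17 h pair. At 13 to 15 h, 2077 were called without the 14 h pair, 3365 without the 13 h pair and 3661 without the 15 h pair. These fits have fewer pairs in the window, so a lower count alone does not show that it rests on 1 pair.

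The windows share no library, and their calls were compared directly. Both windows called 3097 gene models, 47.7% of those called at 16 to 18 h and 73.5% of those called at 13 to 15 h. Of the 3097, 3092 had the same sign. The gene models called at 16 to 18 h had the same sign at 13 to 15 h in 6215 cases (95.7%). Those called at 13 to 15 h had the same sign at 16 to 18 h in 4133 cases (98.0%). The share with the same sign over all gene models was not computed, and both effects come from the same fit and batch of animals. The 3395 gene models called only at 16 to 18 h are thus not shown to differ from 13 to 15 h, and the test of the difference called 7. Across the 24797 gene models with a mean of at least 1 CPM the effects of both windows correlated at r = 0.775 (Pearson). Across all gene models tested r was 0.489. Both values are descriptions over genes that are not independent.

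The 5 gene models called in both windows with opposite signs were A and 4 that did not pass the test of the change. In S5, Xelaev18009179m.g was higher after transection later and lower earlier. It had 11.3, 16.4 and 14.1 CPM in transected cords at 16, 17 and 18 h, against 5.89, 11.4 and 8.66 CPM in sham cords. At 13, 14 and 15 h it had 8.18, 10.6 and 5.43 CPM in transected cords, against 12.9, 12.5 and 13.1 CPM in sham cords. Its change was 1.42 ± 0.23 (log2, SE, adjusted p = 0.083). Xelaev18004433m.g had the same pattern, with effects of 0.47 at 16 to 18 h, against -0.34 at 13 to 15 h, and a change of 0.80 ± 0.15 (adjusted p = 0.16). These are the 2 gene models with the smallest p among positive changes whose pair differences did not overlap and whose mean was at least 1 CPM. In the remaining 2 the changes were -1.0 and -0.61 (adjusted p = 0.22 for each).

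For most gene models the data bound the change without showing one. The 95% interval of the change lay within 1 log2 unit on either side of 0 in 21759 gene models (67.3%), and in 87.5% of those with a mean of at least 1 CPM. It lay within 0.5 log2 units in 31.6% and 41.1%. The median width to each side was 0.435 over all gene models (log2, unadjusted interval). With 3 pairs in each window the smallest change called was -0.94, and larger ones, such as that of Xelaev18009179m.g, were not called in the reported fit. That gene model was called in 4 of 15 alternatives. Among these was the edgeR fit with all 36 pairs of transected and sham libraries (adjusted p = 0.018). That fit still reads the change in the same S5 pairs, so it is not an independent check.

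**Figure D3:**
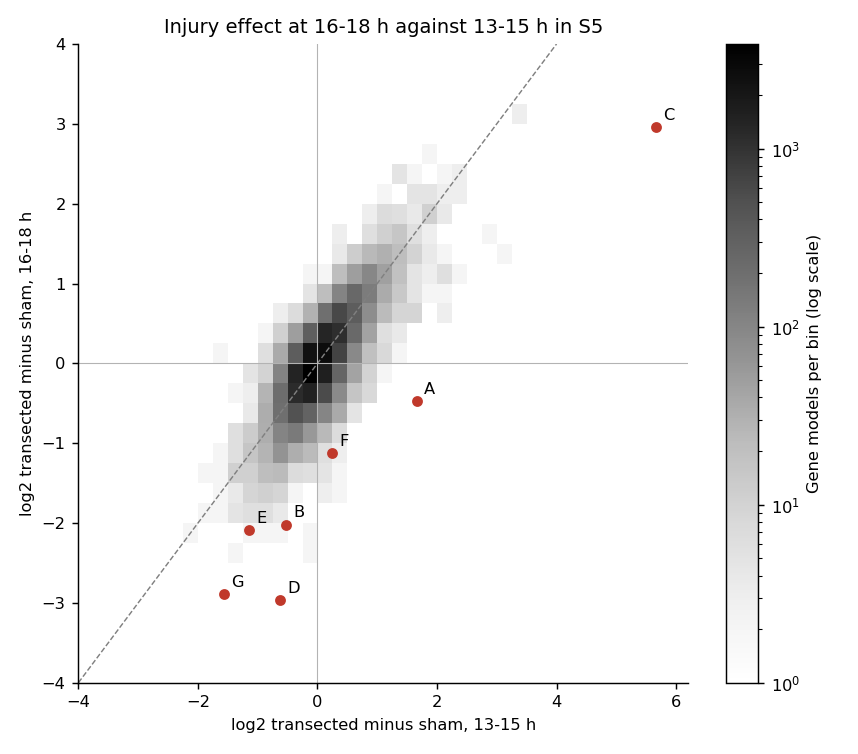
Injury effect at 16 to 18 h (vertical axis) against 13 to 15 h (horizontal axis), log2 transected minus sham, for 24782 gene models with a mean of at least 1 CPM, counted in bins of 0.25 with darker grey for more gene models. The dashed line marks equal effects, 15 gene models lie outside the grey area, and the red points A to G all lie below the line.

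Series S6, another batch of animals, has transected and sham cords at 16, 17 and 18 h. There 6654 gene models were called, 4275 higher and 2379 lower (20.6%), and 3811 without its 16 h pair or 3732 without its 18 h pair. With edgeR's RLE scaling in place of TMM, 3792 were called higher and 3000 lower, so the split by direction depends on the scaling. The injury effects of S5 and S6 at these hours differed in 20 gene models (0.0619%), 1 higher and 19 lower in S5, and without the 17 h pair of S6 in 3. A, C, D and G were among the 20. The 7 were called for an S5 effect that was lower later than earlier, and the same S5 libraries enter this difference, so its sign is not independent of that choice. The effect of A was -0.47 in S5 and 0.58 in S6, a difference of -1.03 ± 0.16 (SE, adjusted p = 0.016). That of C was 2.96 in S5 and 5.39 in S6, a difference of -2.40 ± 0.30 (adjusted p = 0.0046). The differences of D (-1.87 ± 0.31, adjusted p = 0.022) and G (-1.24 ± 0.18, adjusted p = 0.010) ran the same way. In S6 the pair differences of C were 5.50, 5.04 and 5.64 at 16, 17 and 18 h, against 2.85, 2.78 and 3.27 in S5 at these hours and 5.76, 6.30 and 5.07 in S5 at 13, 14 and 15 h, with CPM scaled over the whole time series. The S6 values of 16 and 18 h lay within the S5 range of 13 to 15 h, and that of 17 h just below it. The sham levels of C in S6 were 0.287, 0.456 and 0.354 CPM on that scale.

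B, E and F did not pass the test of S5 against S6 (adjusted p = 0.13, 0.21 and 0.59). Their effects in S6 at 16 to 18 h were -1.25, -1.30 and -0.41, each between the S5 effects of the later and the earlier window. Xelaev18009179m.g and Xelaev18004433m.g had effects of 0.06 and -0.09 in S6 at these hours, against 0.70 and 0.47 in S5. Neither S6 effect passed edgeR's quasi-likelihood test (adjusted p = 0.83 and 0.64). Nor did their differences between S5 and S6 (adjusted p = 0.53 and 0.35). The pair differences of A in S6 were 0.16, 0.64 and 0.82 at 16, 17 and 18 h and -0.51, -0.62 and 0.30 at 19, 20 and 21 h, so in that batch the transected cord was the lower of the pair only at 19 and 20 h. The S5 windows were 3 h apart within 1 batch, and the design gives no second batch with both windows.

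**Figure D4:**
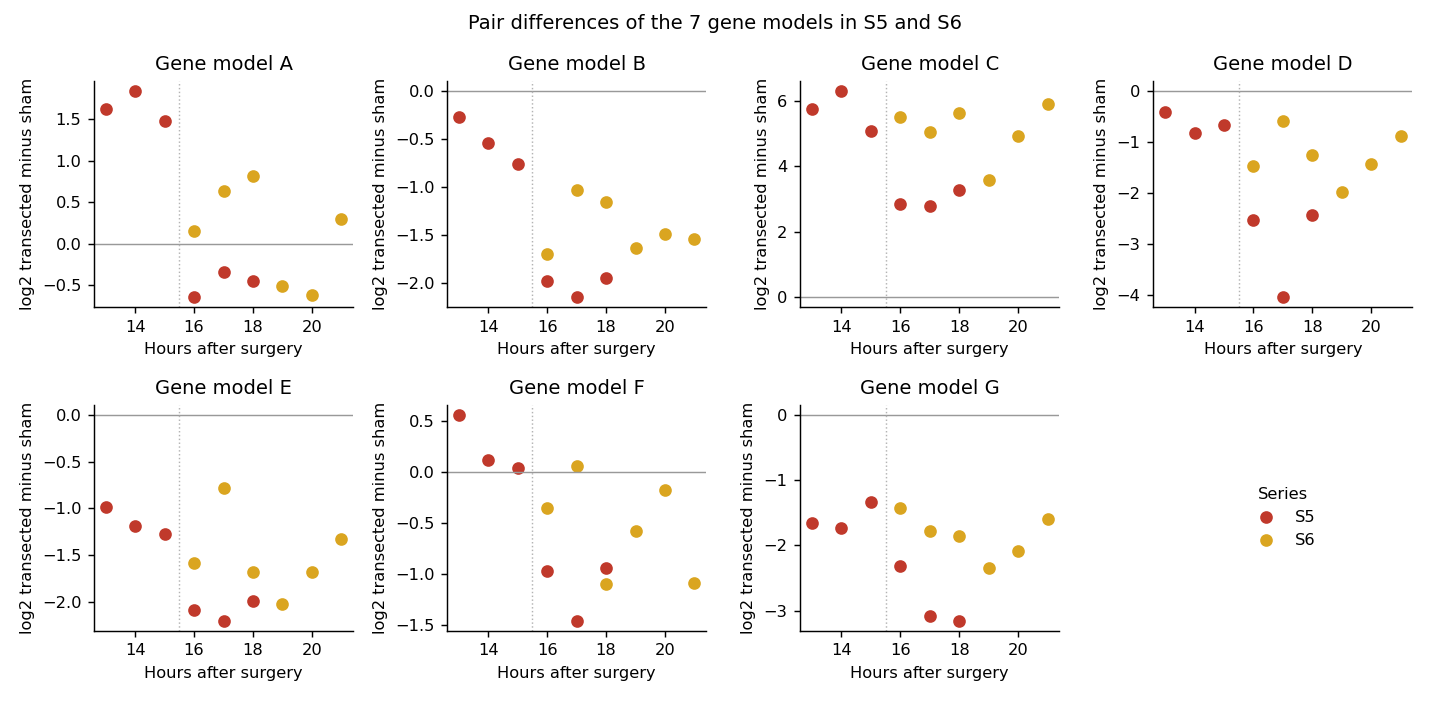
Log2 difference of the transected from the sham library of the same hour for gene models A to G, with CPM scaled over the whole time series, in S5 (red, 13 to 18 h) and S6 (yellow, 16 to 21 h). The S5 points at 16 to 18 h lie below all S6 points of the same hours in A to E and in G, and overlap them in F. These gene models were called for a lower S5 effect at these hours, and the share over all gene models was not computed.

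Gene groups set by other libraries describe where the injury effect was of like size in both windows and where it was not. They were read as medians beside those of all 32328 gene models, whose effect was -0.02 in both windows and whose change was 0.01. The 1564 gene models higher after transection at 7 to 12 h in S4 had a median effect of 0.59 at 16 to 18 h, against 0.60 at 13 to 15 h. Of them 968 were called higher (61.9%) and 19 lower (1.21%) at 16 to 18 h, beside 11.2% and 8.85% of all gene models. At 13 to 15 h, 994 were called higher (63.6%) and 2 lower (0.128%), beside 7.64% and 5.4% of all gene models. The 975 lower at 7 to 12 h had -0.46 at 16 to 18 h, against -0.50 at 13 to 15 h. In S6 at 16 to 18 h the higher group of S4 had 0.72 and the lower group -0.46. The 992 gene models higher at 3 to 6 h in S3 had 0.37 at 16 to 18 h, against 0.47 at 13 to 15 h, with a median change of -0.15, or -0.08 without the 17 h pair. In S6 at 16 to 18 h the median effect of these 992 was 0.54, above that of either S5 window. This group holds 3.07% of the gene models tested and 4 of the 7 called (A, B, C and E). The 7 also fall in other groups, with A, D and E among those higher at 0.5 to 2 h (4.34% of the gene models tested), A and C among those higher at 7 to 12 h (4.84%), D, E and G among those lower at 7 to 12 h (3.02%), G among those lower at 3 to 6 h (1.26%), and in S6 at 16 to 21 h B, D, E, F and G among those lower (15.4%) and C among those higher (19.5%).

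The groups set at 16 to 21 h in S6 were further from 0 in the later window. The 6316 gene models higher there had a median effect of 0.39 at 16 to 18 h, against 0.31 at 13 to 15 h, and 68.4% had a positive change, beside 51.6% of all gene models. The 4983 lower there had -0.37 at 16 to 18 h, against -0.27 at 13 to 15 h, and 31.1% had a positive change. These are small median changes, 0.10 and -0.11 on the log2 scale, over a large part of the transcriptome, and the first was 0.06 without the 18 h pair. The median pair difference of the higher group was 0.37, 0.39 and 0.44 at 16, 17 and 18 h. At 13, 14 and 15 h it was 0.31, 0.36 and 0.30, so the windows did not overlap. In the lower group they met at -0.34, the rounded value of both 14 and 16 h.

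The 1402 gene models higher at 0.5 to 2 h in S1 and S2, the first hours after injury, had a median change of -0.20, and that value rests on 1 pair. Their median pair difference was 0.00, -0.51 and 0.23 at 16, 17 and 18 h, against 0.12, 0.09 and -0.09 at 13, 14 and 15 h. At 17 h their median level relative to the mean of the 12 libraries was -0.21 in the transected cord and 0.30 in the sham cord, the lowest transected and the highest sham value. Without the 17 h pair their median change was 0.03.

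The gene groups set by the Torin1 experiment had median changes of -0.41 (higher with Torin1) and 0.20 (lower with Torin1). In the Torin1 experiment transected animals were kept in Torin1 or its vehicle DMSO for 24 h, with 1 library for each, so membership has no replicate check. The 375 gene models at least 2-fold higher with Torin1 at 24 h (mean of both libraries at least 1 CPM, 0.25 CPM added before the ratio) had a median injury effect of -0.48 at 16 to 18 h, against -0.17 at 13 to 15 h in S5. Their median effect in S6 at 16 to 18 h was -0.33, between those of the S5 windows. In that group 61 of 375 (16.3%) had a positive change, beside 51.6% of all gene models. The median pair difference of this group was -0.41, -0.60 and -0.45 at 16, 17 and 18 h, against 0.01, -0.20 and -0.17 at 13, 14 and 15 h. The windows thus did not overlap, which also held for the group higher at 16 to 21 h in S6. The median change of level with time in the group higher with Torin1 was -0.15 in transected cords, 0.27 in sham cords and 0.09 in the uninjured cords of S8. The 627 gene models at least 2-fold lower with Torin1 had a median effect of 0.63 at 16 to 18 h, against 0.45 at 13 to 15 h, and 72.4% had a positive change. In S6 at 16 to 18 h this group had 0.51, also between the values of the S5 windows. Its median pair difference was 0.61, 0.45 and 0.77 at 16, 17 and 18 h, against 0.38, 0.58 and 0.38 at 13, 14 and 15 h, so here the windows overlapped, and the median change was 0.09 without the 18 h pair.

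Of the 7 gene models called, 6 belong to the group higher with Torin1, all but B. That group holds 1.16% of the gene models tested, and the overlap was not tested. At 24 h, C had 27.99 CPM with Torin1 and 1.86 CPM with DMSO, D had 39.2 CPM with Torin1 and 4.04 CPM with DMSO, and A had 30.9 CPM with Torin1 and 4.81 CPM with DMSO. E, F and G were higher by 1.90, 1.59 and 1.10 (log2), and B by 0.59. At 48 h, when exposure had ended, the difference was 2.85 for C and 1.39 for A. D, E and F were then lower in the library of animals given Torin1, by -1.48, -0.52 and -0.92. At 96 h the differences of D, E and F were 0.29, 0.77 and 0.19, again higher with Torin1. Those of A and C were then 1.14 and 0.64. The CPM of the Torin1 experiment are scaled by library total only, and its libraries were mapped with another aligner. Its levels are therefore compared only within it and not with those of S5. The gene models with positive changes shown above, neither called in the reported fit, ran the other way. Xelaev18009179m.g was at -1.92 and Xelaev18004433m.g at -1.06 (log2 Torin1 minus DMSO at 24 h). Both lie in the group lower with Torin1, which holds 1.94% of the gene models tested. They were picked by p and do not stand for all positive changes. Whether the Torin1 difference has a part in the change of the injury effect was not tested.

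**Figure D5:**
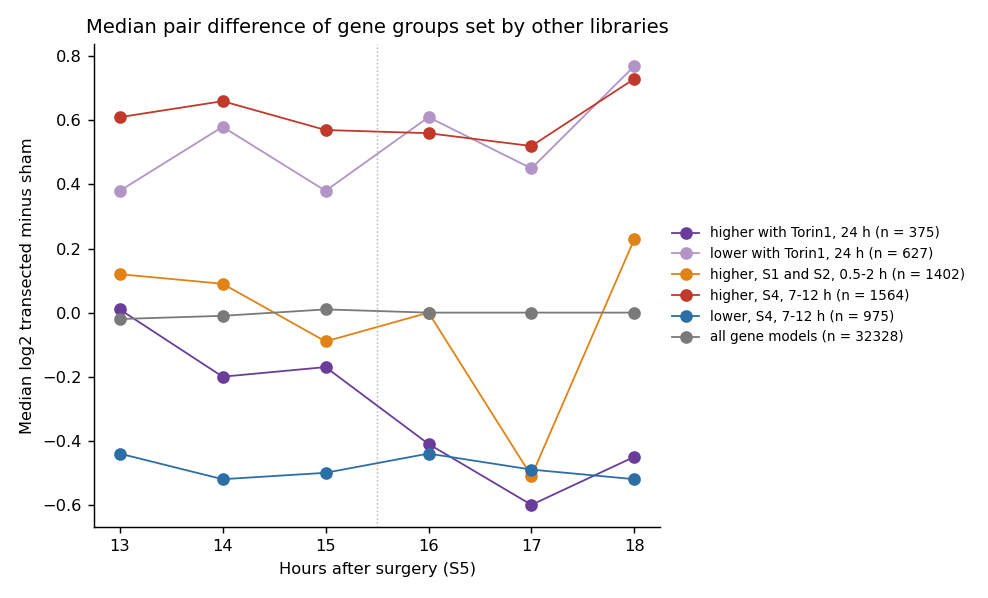
Median log2 difference of the transected from the sham S5 library at each hour for gene groups set by other libraries and for all 32328 gene models. The group higher with Torin1 at 24 h (dark purple, n = 375) lies between -0.60 and -0.41 at 16 to 18 h and between -0.20 and 0.01 at 13 to 15 h, and the groups of S4 (red and blue) lie at a like distance from 0 in both windows.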

How the data were processed

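The authors sequenced poly(A)+ libraries, aligned the reads with Bowtie within RSEM (Bowtie2 for the Torin1 experiment) to the v9.1 transcriptome of *X. laevis*, and deposited a table for each library. The expected count in the authors' tables is RSEM's unnormalized estimate of the reads of a gene, and the deposited TPM is scaled to length and library total. RSEM divides reads among homeologs, so counts of near-identical copies are uncertain.

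Expected counts were rounded. Of 45099 gene models, 32328 were tested: those that reached 5 counts in 4 time points of a condition. They held 99.981% of the counts of the 12 libraries. Totals were 14.7 to 76.6 M, and intervals cover counting error and spread between pools only. The interaction of surgery and window was fitted with edgeR 4.0.16 in R 4.3.3 (TMM, quasi-likelihood F-test, Benjamini-Hochberg), with the hour as block and 1 injury effect per window. Changes with time used a model of 4 groups without the block, and S5 against S6 a model of 18 libraries. limma 3.58.1 on log2(TPM + 1), a log2 scale made here from the deposited TPM, and DESeq2 1.42.0 were alternatives, beside other filters, scalings and fits without 1 pair. Figures were drawn in Python 3.11.15.

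The series, windows, gene groups and tests were chosen with earlier results of these data known. Gene models named are those called for the change, with identifiers for the 2 largest decreases and for the 2 increases of smallest p. No identifier matched the 44456 entries of the RefSeq table, so gene lists of pathways and cell types were not used and no sequences are shown. The rule set for named genes needed symbols, so this choice was made in its place, after values were seen. The count test was tested on simulated data.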

Additional observations from a re-analysis of the deposited data

Results flagged for a closer look

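The injury effect of 7 gene models differed between 16 to 18 h and 13 to 15 h in S5 by the test of the interaction of surgery and time window. The changes (log2, 16 to 18 h minus 13 to 15 h) were -2.13 for gene model A, -1.50 for B, -2.71 for C, -2.34 for D, -0.94 for E, -1.36 for F and -1.32 for G. In each of the 7, all 3 pair differences of the later window lay below all 3 of the earlier one. This held in 1914 of 32328 gene models (5.92%), and the 7 were called from these same libraries.

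At 16 to 18 h the injury effect of 4 of these gene models also differed between the batches S5 and S6 by the test of that difference. The differences (log2, S5 minus S6) were -1.03 for gene model A, -2.40 for C, -1.87 for D and -1.24 for G. The same S5 libraries of 16 to 18 h enter both tests, and gene models called for an S5 effect that was lower later tend to lie below S6 by that choice, so the second difference is not independent of the first.

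Groups of 3 libraries were not searched for a library that stands apart.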

How the results depend on the processing

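The change in gene models A to G kept its sign under every alternative that gave a value, and the calls did not. All alternatives reused the S5 libraries in which the 7 were called, so the kept sign is not an independent check. The number of changed gene models was 7 in the reported fit, 232 without a low-count filter (49 higher, 183 lower), 3 with filterByExpr, 79 with DESeq2 (12 higher, 67 lower, over 1617 gene models that received an adjusted p), 12 with the hour as a number, 2 with all 36 pairs in the fit and 0 with limma on log2(TPM + 1), where 4237 passed an unadjusted p under 0.05. The fit with all 36 pairs called 1 lower, B, and 1 higher, Xelaev18009179m.g. Of the 7, DESeq2 called E and F, and it gave A, B, C, D and G no adjusted p. The fit with the hour as a number called A and B of the 7. DESeq2 without independent filtering, chosen after seeing the data, called 49, among them all 7. Without the replicate block 3 were called, and 9 instead of 20 between S5 and S6. Deviations of same-hour libraries from their group means correlated, across gene models, at -0.364 (17 h) to 0.192 (15 h). Little common deviation was thus seen across gene models, and it was not computed for single ones. The adjusted p of A by edgeR's quasi-likelihood test was 7.8e-06 with the block and 0.28 without it.

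Leaving out 1 pair gave 2 to 13 changed gene models, 3151 to 7124 calls at 16 to 18 h, 2077 to 4140 at 13 to 15 h, 3732 to 4450 in S6 and 3 to 15 between S5 and S6. Leaving out 1 hour gave 0 to 10 changes with time in transected, 1 to 538 in sham and 0 to 2 in uninjured cords. Without a low-count filter these were 16 in transected and 167 in sham cords. With at least 2-fold required, 1081 remained at 16 to 18 h, against 677 at 13 to 15 h, and limma on log2(TPM + 1) called 2074 at 13 to 15 h.

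On log2(TPM + 1) the median change over all gene models was 0.15. The groups higher at 3 to 6 h (S3), higher at 7 to 12 h (S4) and lower at 16 to 21 h (S6) then had median changes of 0.04, 0.14 and 0.07, or -0.11, -0.01 and -0.08 relative to that median. The group higher with Torin1 had -0.16, or -0.31 relative to it. The group lower at 7 to 12 h had -0.03 with the hour as a number and -0.02 without the 15 h or the 17 h pair. Where values changed, the cause was not tested.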
